A study of Mus musculus with 13 samples.

Results

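The Slc25 genes encode the mitochondrial carriers, a family of membrane proteins that share 1 fold. Most sit in the inner mitochondrial membrane, where each moves its own substrates: nucleotides, phosphate, organic acids, amino acids, iron or cofactors. Members were genes of the deposited table with a symbol of Slc25a followed by a number, 46 of 22298 genes. All 46 were placed in 12 groups, by the substrate they carry or the proteins they resemble, the last holding other members. Their RNA was followed in liver and kidney of adult CD-1 (ICR) mice aged 8 weeks, born from oocytes that had either been used fresh or been vitrified with the Cryotop method and thawed. Both origins shared the remaining steps: fertilisation in vitro, embryo culture and transfer of cleaved embryos to pseudopregnant females, so no group was conceived naturally. There were 13 libraries, from 3 livers and 3 kidneys of fresh origin and from 3 livers and 4 kidneys of vitrified origin. The labels name no mutant allele or transgene, and give neither sex nor litter. Replicates of a group are labelled as biological, without saying whether they shared a litter, and p-values measure the spread between them.

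Carriers set which metabolic steps the mitochondrial matrix and the cytosol can share. Liver relies on them for the urea cycle, which runs across the inner membrane, and for gluconeogenesis and lipid synthesis. Kidney tubules rely on them for the ATP that drives reabsorption of salts and solutes. Several carriers come as paralogue pairs that move the same substrate, and which of a pair is used is a known trait of a tissue.

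Library totals ranged from 16073251 to 19964914 estimated counts, and sums of hepatocyte, proximal tubule and podocyte markers were high in the organ that each library was labelled with. The hepatocyte sums were 93875 to 243771 normalised CPM in livers and 1175 to 4327 in kidneys. Among these markers Ass1 overlapped between organs (1382 to 2402 in liver, 785 to 2287 in kidney), and Cyp2e1 reached 1871 in kidney. In 3 libraries (liver fresh 3, kidney fresh 3 and kidney vitrified 4) the summed level of 4 Y-linked genes was at most 1.13 normalised CPM, against 108 to 274 in the other libraries. The 2 kidneys among them also had the lowest sums of 5 proximal tubule markers, 11338 and 7588 normalised CPM, against 24535 to 29541 in the other kidneys. Kap was the largest part of these sums (6324 and 3098 against 19110 to 24789). Slc34a1 was also lowest in these 2 (2092 and 2297 against 2788 to 3549). Slc22a8 was instead highest there (390 and 409 against 146 to 331), as was Slc5a2 (274 and 284 against 166 to 272). Lrp2 lay within the range of the others (2258 and 1501 against 1362 to 2351). The sums of 3 podocyte markers in the 2 kidneys were higher, 403 and 553 against 183 to 230.3. Adipocyte markers were near 0 in all libraries (at most 1.53 normalised CPM summed over 5 genes), and the brown fat uncoupler Ucp1 itself averaged 0.0239 normalised CPM in liver and 0.0331 in kidney. Of the 46 Slc25 genes, 40 had enough counts to be tested between organs.

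Levels are given on 2 scales. FPKM, as the authors deposited it, is per transcript length and was used to compare genes with each other. CPM, a count scaled to the library total, was divided by the TMM factor (a scaling that centres the bulk of genes on no difference) to give normalised CPM. These values were used to compare libraries for 1 gene. The choice matters between these organs. TMM factors were 0.616 to 0.759 in liver and 1.26 to 1.57 in kidney, and with library totals alone the median of all genes stood at -0.99 (log2, liver over kidney) in place of 0.00. Organ differences below are therefore differences from the typical gene. Each value scaled by totals alone is to be read against that median of -0.99.

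Summed over the 46 members, the family reached 2538 ± 171 FPKM in kidney (SD, n = 7) and 1235 ± 91.5 FPKM in liver (SD, n = 6). All 7 kidneys, at 2348 to 2842 FPKM, lay above all 6 livers, at 1114 to 1380. On the TMM scale the family sums did overlap, at 3583 ± 254 normalised CPM in liver and 3442 ± 325 in kidney, so the family's higher total in kidney was seen with FPKM, and with library totals (2244 to 2771 against 4422 to 5120 CPM), but not relative to the typical gene. In whole organ pieces, fewer cells of a type and less RNA per cell cannot be told apart.

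**Figure D1:**
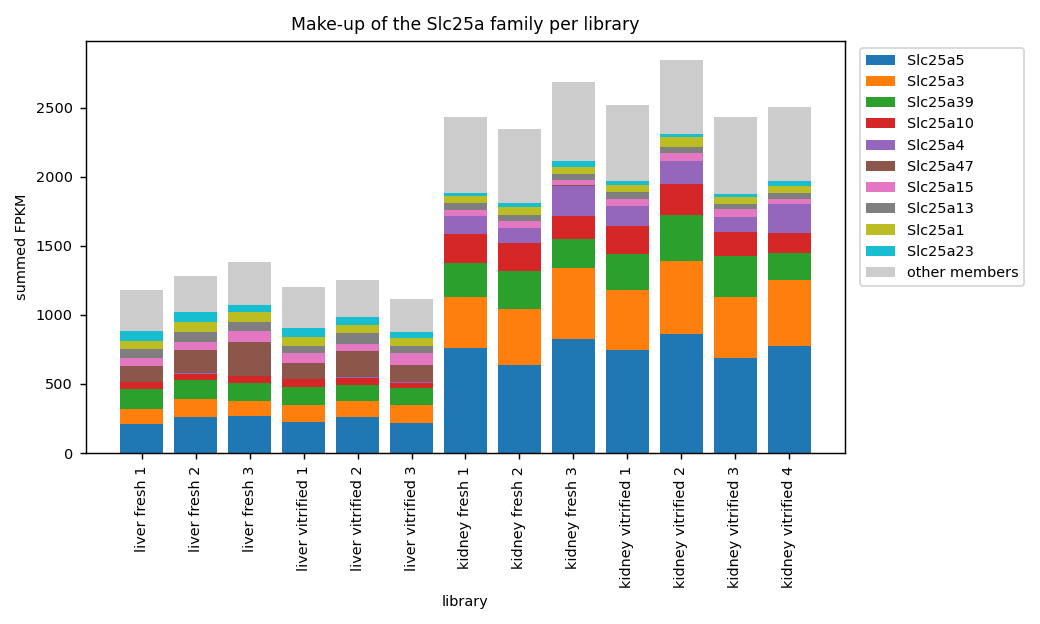
Summed FPKM of the 46 Slc25 genes in each library (y axis), split into 10 chosen abundant members and the rest. The rest includes Slc25a11, which ranked 6th in kidney at 97.8 FPKM. Each bar is 1 library, and the Slc25a47 block is visible in the 6 liver bars while the Slc25a4 block is visible in the 7 kidney bars.

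Slc25a5, an ADP/ATP carrier, was the most abundant member of the family in both organs. It made up 19.4% of the family's FPKM in liver and 29.8% in kidney. In liver it was followed by Slc25a47 at 160.0 FPKM, Slc25a39 at 130.5 and Slc25a3 at 119, and in kidney by Slc25a3 at 452 FPKM, Slc25a39 at 260.1, Slc25a10 at 188 and Slc25a4 at 156. The SDs in liver were 51.8 for Slc25a47, 11.8 for Slc25a39 and 10.5 FPKM for Slc25a3. The order of those 3 by mean did not hold in every liver and was not tested. Slc25a39 was above Slc25a47 in liver fresh 1 (145 against 115 FPKM). Slc25a3 was above Slc25a39 in liver vitrified 3 (128 against 123). Slc25a47 was 39th of the 46 in kidney at 0.593 ± 0.233 FPKM.

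**Figure D2:**
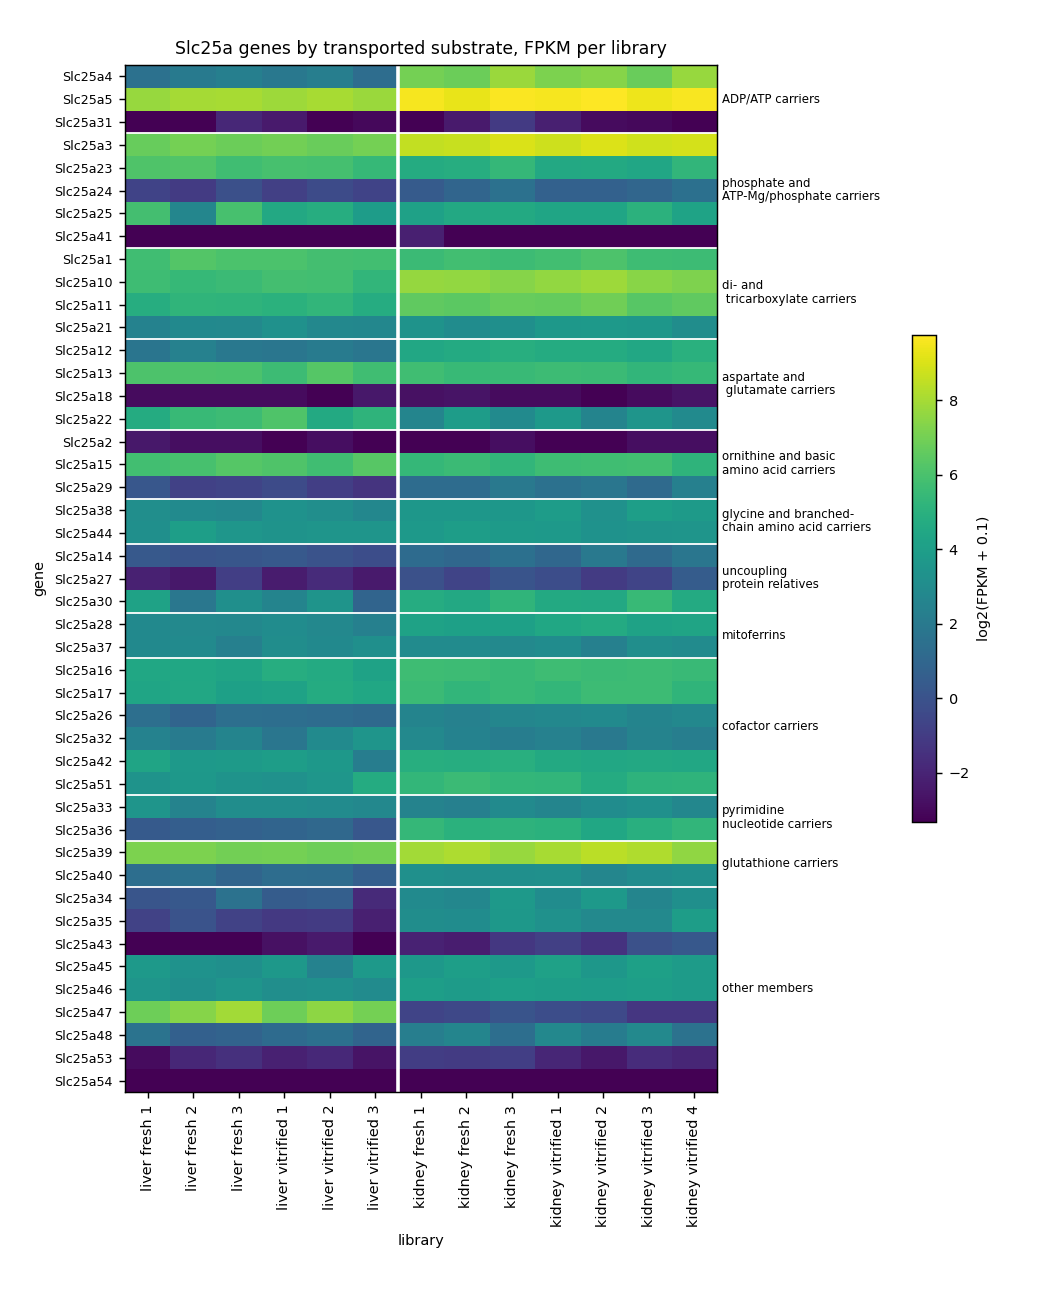
Level of 45 Slc25 genes in each library, as log2(FPKM + 0.1), with genes in rows by transported substrate and libraries in columns. Slc25a5 and Slc25a3 are bright in all 13 columns, Slc25a47 is bright in the 6 liver columns, and Slc25a54 and Slc25a41 are dark throughout.

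Between organs, 29 of the 40 tested members passed edgeR's quasi-likelihood test at an adjusted p under 0.05, against 62.7% of all genes tested. Of these, 12 were higher in liver, where 30.3% of all genes tested passed in that direction, and 17 were higher in kidney, where 32.4% did. Past a 2-fold difference stood 9 members in liver (16.3% of all genes) and 8 in kidney (23.8%). In each direction these shares of the family were of the order of the background. Livers and kidneys did not overlap in normalised CPM for 11 members higher in liver (17.5% of all genes) and 14 higher in kidney (22.2%). With library totals alone the same 40 members split into 5 higher in liver (10.5% of all genes) and 28 higher in kidney (69.7%), with 3 (8.40%) and 24 (48.4%) past 2-fold. In CPM of library totals 2 members (6.83%) and 23 members (51.9%) did not overlap. The median difference of the members was -0.17 (log2) against 0.00 over all genes, and their median absolute difference was 0.95 against 0.75.

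**Figure D3:**
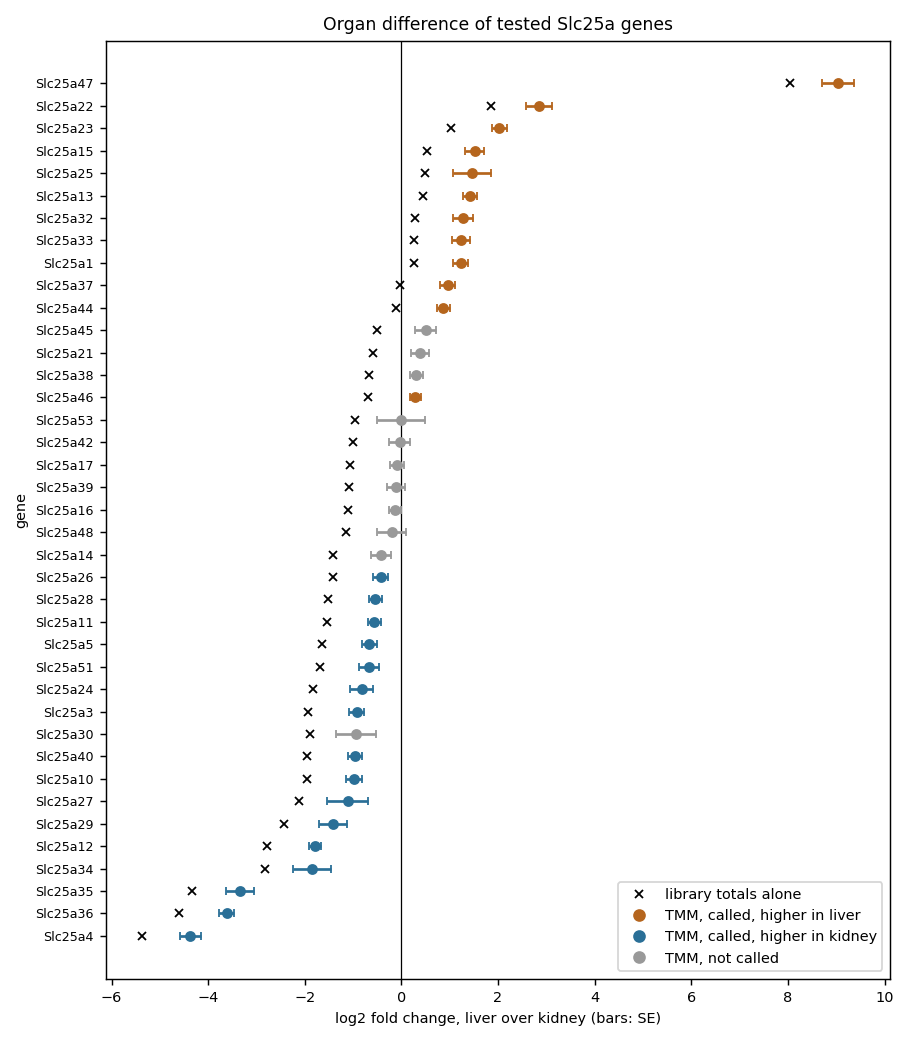
Organ difference (log2 fold change, liver over kidney) of 39 tested Slc25 genes with TMM scaling (circles, bars are the SE) and with library totals alone (crosses). Slc25a47 lies at 9.03 and Slc25a4 at -4.37 with TMM, and every cross lies about 1 unit to the left of its circle.

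The ADP/ATP carriers exchange cytosolic ADP for the ATP made in the matrix. Both expressed members were higher in kidney, and Slc25a4, the isoform best known from heart and muscle, differed most in that direction of the whole family. Slc25a4 stood at 8.07, 10.6 and 13.7 normalised CPM in fresh livers and at 10.2, 12.1 and 7.55 in vitrified livers. In kidney it reached 190.5, 162 and 279 in the fresh group and 197, 251, 167 and 258 in the vitrified group. No liver came near any kidney, and the difference was 20.7-fold (log2 -4.37 ± 0.22 SE, adjusted p = 1.3e-09). Slc25a5 ran from 379 to 479 normalised CPM in liver and from 599 to 840.0 in kidney, again without overlap (log2 -0.67 ± 0.15, adjusted p = 0.0020). Slc25a4 thus made up 1.52% ± 0.272 of the FPKM of this pair in liver (SD, n = 6) and 16.8% ± 3.16 in kidney (SD, n = 7). Slc25a31, an isoform known from testis, had 36 counts in all 13 libraries together and was not tested. Part of the Slc25a5 transcript, 33.8% of its 50-base words, also occurs in other annotated transcripts, so its counts may share reads with those genes.

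The promoter of Slc25a4 (RefSeq, GRCm38.p6, chr8:46211013-46211312, minus strand, 250 bases before to 50 after the start) is shown because Slc25a4 had the largest kidney excess. Capitals mark the letters CCAAT, or ATTGG where they lie on the other strand.
Slc25a4: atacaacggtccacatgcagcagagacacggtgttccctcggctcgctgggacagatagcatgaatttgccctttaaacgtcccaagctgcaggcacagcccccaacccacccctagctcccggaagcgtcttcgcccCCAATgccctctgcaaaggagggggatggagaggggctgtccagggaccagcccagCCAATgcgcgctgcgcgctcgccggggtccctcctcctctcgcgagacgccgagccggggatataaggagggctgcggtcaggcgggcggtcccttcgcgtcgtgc

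Slc25a47, a carrier described mainly from liver, had the largest organ difference of the family. It read 268, 364 and 573 normalised CPM in fresh livers and 269, 393 and 332 in vitrified livers. In kidney it read 0.661, 0.742 and 0.994 in the fresh group and 0.869, 0.784, 0.407 and 0.326 in the vitrified group. These kidney values rest on 9 to 28 counts per library. The hepatocyte marker Alb was also lowest in kidney vitrified 3 and 4 (1.02 and 6.73 against 83.9 to 199 normalised CPM). Ttr was not, at 420 in kidney vitrified 3. The part of liver transcripts in the kidney values, and so in the fold, was not tested. Every liver was far above every kidney for Slc25a47, by 525-fold in the fit (log2 9.03 ± 0.33, adjusted p = 8.8e-11), and scaling by totals alone left 8.05. Next to it on chromosome 12, with no protein-coding gene between them in the RefSeq list, is another member, Slc25a29, a carrier of basic amino acids such as arginine and lysine, which went the opposite way. Slc25a29 read 3.04, 1.31 and 1.51 normalised CPM in fresh livers, 1.96, 1.15 and 0.923 in vitrified livers, 3.54, 3.48 and 4.83 in fresh kidneys and 3.98, 5.29, 3.38 and 6.48 in vitrified kidneys. It was 2.67-fold higher in kidney without overlap (log2 -1.42 ± 0.28, adjusted p = 6.5e-04), at a level far below that of Slc25a47 in liver.

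Both promoters (RefSeq, GRCm38.p6) are shown because the genes are neighbours, are transcribed away from each other and differ in opposite directions. Slc25a29 starts in chr12:108835827-108836126 on the minus strand and Slc25a47 in chr12:108850879-108851178 on the plus strand. Capitals mark CCAAT on either strand.
Slc25a29: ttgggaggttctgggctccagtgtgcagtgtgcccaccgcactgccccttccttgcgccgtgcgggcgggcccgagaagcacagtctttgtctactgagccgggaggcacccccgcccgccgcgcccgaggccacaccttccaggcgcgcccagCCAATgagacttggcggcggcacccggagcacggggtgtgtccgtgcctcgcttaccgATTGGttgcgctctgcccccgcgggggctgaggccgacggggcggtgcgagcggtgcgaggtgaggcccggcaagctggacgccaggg
Slc25a47: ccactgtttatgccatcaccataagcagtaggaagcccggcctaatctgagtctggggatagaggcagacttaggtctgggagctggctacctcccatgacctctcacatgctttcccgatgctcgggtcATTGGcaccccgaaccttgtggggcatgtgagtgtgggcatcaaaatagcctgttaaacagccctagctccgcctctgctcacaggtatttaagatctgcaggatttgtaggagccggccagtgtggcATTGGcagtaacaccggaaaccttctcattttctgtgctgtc
The Slc25a29 promoter is 72.3% G and C and the Slc25a47 promoter 53.3%. Of the 46 members, 35 had at least 1 promoter sequence in the RefSeq table, with 45 promoters in all. The letters CCAAT, searched on both strands, were found in 22 of these 45 promoters, from 19 members, and in 37.4% of 32851 mouse promoters. TATAAA was found in 2 of the 45 (13.6% of all promoters), GTTAAT, part of the site read by the liver factor HNF1, in 1 (7.1%), and TCAAGGTCA, an element bound by the ERR nuclear receptors, in 0 (0.423%). The promoters printed here held matches of CCAAT only, among both the gene that was high in liver and those that were high in kidney.

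Among the phosphate and ATP-Mg/phosphate carriers, Slc25a3, which brings in the phosphate used for ATP synthesis, was higher in kidney. It ran from 233 to 334 normalised CPM in liver and from 461 to 673 in kidney (log2 -0.93 ± 0.15, adjusted p = 1.5e-04). The ATP-Mg/phosphate carriers respond to calcium and adjust the adenine nucleotide pool of the matrix, and they differed in direction. Slc25a23 read 343, 331 and 246 normalised CPM in fresh livers, 278, 244 and 214 in vitrified livers, 64.0, 67.9 and 86.4 in fresh kidneys and 55.2, 59.8, 54.5 and 79.1 in vitrified kidneys. It was 4.08-fold higher in liver with no overlap (log2 2.03 ± 0.15, adjusted p = 7.4e-08). Slc25a24 was higher in kidney at a low level (2.72 ± 0.757 against 4.79 ± 1.11 normalised CPM, log2 -0.82 ± 0.24, adjusted p = 0.0088), with overlapping groups. Slc25a41, the neighbour of Slc25a23 on chromosome 17, had 3 counts in 1 kidney and 0 in the other 12 libraries.

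Slc25a25, the remaining ATP-Mg/phosphate carrier, varied widely among livers. It read 249.7, 26.8 and 268 normalised CPM in fresh livers and 107, 113 and 76.4 in vitrified livers. In kidney it read 38.9, 50.6 and 46.8 in the fresh group and 42.4, 50.8, 79.1 and 36.9 in the vitrified group. Liver fresh 2 lay below all 7 kidneys while the other 5 livers reached up to 268, a 9.998-fold range within the organ. The organ difference passed the test (log2 1.46 ± 0.40, adjusted p = 0.0065), but not with a replicate block (adjusted p = 0.092), nor with library totals alone (log2 0.48, adjusted p = 0.27). Without the 3 libraries near 0 in Y-linked counts its adjusted p was 0.0665.

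The di- and tricarboxylate carriers link the citric acid cycle with the cytosol. Slc25a1 exports citrate, the source of cytosolic acetyl-CoA for lipid synthesis, and was higher in liver (125 to 171 against 48.9 to 90.5 normalised CPM, log2 1.23 ± 0.15, adjusted p = 1.0e-05). The dicarboxylate carrier Slc25a10 was higher in kidney (121 to 167 against 190.0 to 362, log2 -0.98 ± 0.17, adjusted p = 2.5e-04), as was the oxoglutarate carrier Slc25a11 of the malate-aspartate shuttle (68.7 to 90.01 against 104 to 162, log2 -0.56 ± 0.13, adjusted p = 0.0025). Organs did not overlap for any of these 3. With library totals alone Slc25a1 no longer passed (log2 0.25, adjusted p = 0.091). Slc25a21, the oxodicarboxylate carrier, did not pass (18.8 ± 4.33 against 14.5 ± 3.50 normalised CPM, log2 0.39 ± 0.19, adjusted p = 0.089), and its sign turned with library totals and with FPKM.

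The aspartate and glutamate carriers split by paralogue. Slc25a12 and Slc25a13 both export aspartate in exchange for glutamate, as part of the malate-aspartate shuttle, and aspartate feeds the urea cycle. Slc25a13 read 306, 291 and 295 normalised CPM in fresh livers, 216, 317 and 264 in vitrified livers, 128, 105 and 93.0 in fresh kidneys and 110.1, 117, 94.3 and 85.2 in vitrified kidneys. Slc25a12 read 14.3, 21.8 and 16.02 in fresh livers, 15.1, 17.1 and 17.9 in vitrified livers, 55.1, 59.6 and 61.1 in fresh kidneys and 58.9, 62.5, 54.2 and 62.4 in vitrified kidneys. Neither gene's organs overlapped, and they went opposite ways: Slc25a13 was 2.67-fold higher in liver (log2 1.42 ± 0.14, adjusted p = 1.4e-06) and Slc25a12 was 3.47-fold higher in kidney (log2 -1.79 ± 0.12, adjusted p = 2.6e-08). Slc25a12 therefore made up 5.79% ± 0.951 of the pair's FPKM in liver (SD, n = 6) and 36.2% ± 3.81 in kidney (SD, n = 7), so Slc25a13 was the larger part in both organs.

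Slc25a22 carries glutamate into the matrix, where it can be deaminated to give ammonia. It read 84.7, 132 and 161 normalised CPM in fresh livers, 108, 68.0 and 136 in vitrified livers, 11.5, 24.4 and 11.8 in fresh kidneys and 20.5, 11.3, 20.3 and 11.9 in vitrified kidneys. All livers were above all kidneys, by 7.17-fold (log2 2.84 ± 0.27, adjusted p = 7.0e-07). Its paralogue Slc25a18 was at the edge of detection, with 16 counts in all 13 libraries together.

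Slc25a15, the ornithine and citrulline exchanger of the urea cycle, was higher in liver. It read 276, 294 and 390.1 normalised CPM in fresh livers, 347, 239.7 and 449.7 in vitrified livers, 109, 126 and 88.0 in fresh kidneys and 129, 144, 151 and 79.8 in vitrified kidneys. The organs did not overlap and differed by 2.85-fold (log2 1.51 ± 0.20, adjusted p = 1.9e-05), and by log2 0.53 with library totals alone (adjusted p = 0.0064). Slc25a2, a second ornithine carrier, had 8 counts in total.

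For comparison, the listed enzymes of the urea cycle and of arginine metabolism split into 6 higher in liver, 2 higher in kidney and 1 not passing (4 and 3 with library totals alone). Over all genes 30.3% were higher in liver and 32.4% in kidney, and 10.5% and 69.7% with library totals alone. Nags, which makes the activator of the cycle's first enzyme, and Otc, which uses the ornithine that Slc25a15 brings in, had the largest liver excess (log2 10.60 ± 0.39 and 10.38 ± 0.71). In kidney Otc read at most 2.06 normalised CPM, and 0.0407 and 0 in kidney vitrified 3 and 4, the kidneys lowest in Alb. Gatm, the first enzyme of creatine synthesis, and Arg2, a mitochondrial arginase, were higher in kidney (log2 -4.84 ± 0.34 and -4.13 ± 0.57). The list spread widely around its median of 1.39, with Asl at 1.39 and Ass1, the enzyme that did not pass, at 0.35. The differences of Slc25a13 (1.42) and Slc25a15 (1.51) lay within that wide spread. So did those of every tested member of the family (-4.37 to 9.03), so this does not set these 2 carriers apart.

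Of the glycine and branched-chain amino acid carriers, Slc25a44, which brings leucine, isoleucine and valine into the matrix, was higher in liver with TMM scaling (46.7 to 78.9 against 25.1 to 40.7 normalised CPM, log2 0.86 ± 0.14, adjusted p = 8.6e-05), but its sign turned with library totals alone (log2 -0.12) and with FPKM. Slc25a38, the glycine carrier needed for heme synthesis, did not pass (18.5 ± 2.86 against 15.1 ± 2.36 normalised CPM, log2 0.31 ± 0.14, adjusted p = 0.066), and its sign turned in the same settings (log2 -0.68 with totals).

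The uncoupling protein relatives are carriers close in sequence to the thermogenic uncoupler Ucp1. Slc25a30, first described from kidney, read 95.1, 17.4 and 46.2 normalised CPM in fresh livers, 30.6, 50.3 and 10.2 in vitrified livers, 76.4, 63.4 and 86.6 in fresh kidneys and 63.7, 66.8, 126 and 57.7 in vitrified kidneys. Livers spanned a 9.36-fold range that reached into the kidneys, and the organ difference did not pass (log2 -0.94 ± 0.41, adjusted p = 0.059). Slc25a27 read 0.559, 0.232 and 1.74 normalised CPM in fresh livers, 0.437, 0.611 and 0.420 in vitrified livers, 1.59, 1.07 and 1.63 in fresh kidneys and 1.34, 0.882, 0.978 and 2.24 in vitrified kidneys. Liver fresh 3 overlapped the kidneys, and the gene passed narrowly for kidney (log2 -1.11 ± 0.43, adjusted p = 0.036). Slc25a27 passed in only 5 of 13 fits that each left out 1 library, and leaving out liver fresh 3 moved it to log2 -1.66. Slc25a14 was low in both organs and did not pass (2.24 ± 0.316 against 3.06 ± 0.808 normalised CPM, log2 -0.42 ± 0.22, adjusted p = 0.11).

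The mitoferrins import iron for heme and iron-sulfur clusters. Slc25a28, the more widely expressed one, was higher in kidney (12.0 to 16.2 against 17.0 to 28.8 normalised CPM, log2 -0.54 ± 0.13, adjusted p = 0.0030). Slc25a37, best known from red cell precursors, was higher in liver with TMM scaling (29.0 to 59.6 against 16.9 to 28.5 normalised CPM, log2 0.96 ± 0.16, adjusted p = 1.3e-04), but its sign turned with library totals alone (log2 -0.031) and with FPKM. Summed over 3 erythroid markers, levels overlapped between organs, at 301 to 618 normalised CPM in liver and 149.5 to 649.9 in kidney. Among them Alas2, the heme synthesis enzyme of red cell precursors, was higher in liver without overlap (18.1 to 180.1 against 1.69 to 8.12 normalised CPM, log2 4.61 ± 0.51), while the globins Hbb-bs and Hba-a1 did not pass (-0.24 ± 0.28 and -0.34 ± 0.29). Liver fresh 3 was the lowest liver for both Alas2 (18.1) and Slc25a37 (29.0). The part of red cell precursors in the Slc25a37 result was not tested. The counts of Slc25a37 were not whole in any of the 13 libraries, so they may hold reads divided between genes. Slc25a28 made up 48.0% ± 6.79 of the pair's FPKM in liver and 72.1% ± 5.08 in kidney.

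The cofactor carriers supply the matrix with coenzymes. Of 7 tested, 1 was higher in liver (30.3% of all genes) and 3 in kidney (32.4%), and with library totals alone 0 (10.5%) and 6 (69.7%). Slc25a32, which carries folates and FAD, read 39.8, 32.6 and 48.6 normalised CPM in fresh livers, 28.7, 49.2 and 72.2 in vitrified livers, 25.1, 18.8 and 16.5 in fresh kidneys and 19.6, 14.7, 20.3 and 13.6 in vitrified kidneys. It was 2.42-fold higher in liver without overlap (log2 1.28 ± 0.21, adjusted p = 1.1e-04), and did not pass with library totals alone (log2 0.29, adjusted p = 0.17).

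Slc25a51, the NAD carrier, was higher in kidney (69.3 ± 33.9 against 108 ± 12.6 normalised CPM, log2 -0.67 ± 0.21, adjusted p = 0.014), although liver vitrified 3 at 136 lay above every kidney. Slc25a26, which imports S-adenosylmethionine, was slightly higher in kidney (4.79 to 7.41 against 7.80 to 11.3 normalised CPM, log2 -0.43 ± 0.15, adjusted p = 0.026), and lost its call when liver fresh 2, liver vitrified 2 or kidney fresh 1 was left out (adjusted p 0.0593 to 0.0690). Slc25a16 and Slc25a42, both linked to coenzyme A, and Slc25a17, a peroxisomal carrier, did not pass, with log2 differences of -0.13 ± 0.13, -0.04 ± 0.21 and -0.09 ± 0.15. Slc25a42 averaged 59.5 normalised CPM in both organs, but spread over 23.5 to 90.5 in liver and 45.4 to 72.4 in kidney.

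The pyrimidine nucleotide carriers, which supply the matrix for the synthesis of mitochondrial DNA and RNA, differed in opposite directions. Slc25a36 read 7.27, 7.64 and 9.37 normalised CPM in fresh livers, 9.82, 9.24 and 7.13 in vitrified livers, 137, 103 and 97.05 in fresh kidneys and 101, 74.4, 101 and 105 in vitrified kidneys. The lowest kidney was several times above the highest liver, and the fitted difference was 12.3-fold (log2 -3.62 ± 0.16, adjusted p = 3.3e-10). Slc25a33 read 30.6, 14.6 and 23.3 in fresh livers, 23.1, 19.4 and 20.5 in vitrified livers, 8.17, 7.29 and 9.12 in fresh kidneys and 8.15, 12.2, 13.9 and 8.00 in vitrified kidneys. It was 2.35-fold higher in liver, where the lowest library just cleared the highest kidney (log2 1.24 ± 0.19, adjusted p = 8.1e-05), but did not pass with library totals alone (log2 0.25, adjusted p = 0.23). Slc25a33 made up 83.9% ± 4.07 of the pair's FPKM in liver (SD, n = 6) and 17.8% ± 5.68 in kidney (SD, n = 7), so the major member of the pair differed between the organs. Of the 50-base words of Slc25a33, 12.6% also occur in other annotated transcripts, so its counts carry that uncertainty.

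The glutathione carriers bring this antioxidant into the matrix. Slc25a39, among the most abundant members in both organs by FPKM, did not pass (221 to 299 against 197 to 413 normalised CPM, log2 -0.11 ± 0.18, adjusted p = 0.63). Its paralogue Slc25a40 was higher in kidney (6.38 to 9.99 against 13.3 to 19.4 normalised CPM, log2 -0.97 ± 0.14, adjusted p = 5.0e-05). Slc25a39 nevertheless made up 98.3% of the pair's FPKM in liver and 96.7% in kidney.

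**Figure D4:**
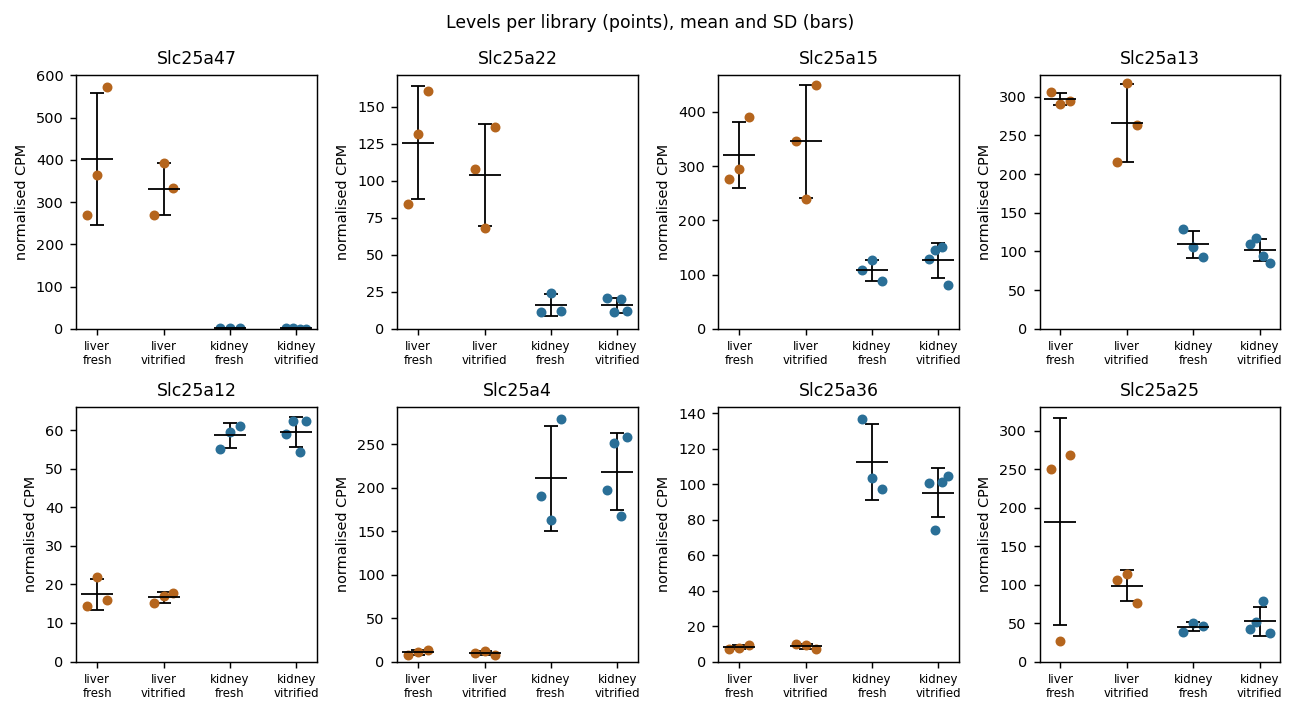
Normalised CPM (y axis) of 8 Slc25 genes in the 4 groups, with each point 1 library and bars for the mean and SD. Slc25a13 is higher in liver (85.2 to 128 in kidney, 216 to 317 in liver) while its paralogue Slc25a12 is higher in kidney, and the 3 fresh livers of Slc25a25 spread from 26.8 to 268.

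Members with no settled substrate also differed. Slc25a35 read 1.76, 2.56 and 1.44 normalised CPM in fresh livers, 1.43, 1.36 and 0.420 in vitrified livers, 13.7, 12.9 and 17.0 in fresh kidneys and 15.04, 11.2, 11.5 and 22.2 in vitrified kidneys. It was 10.2-fold higher in kidney (log2 -3.35 ± 0.28, adjusted p = 2.4e-07). Of its 50-base words, 25.1% also occur in annotated transcripts of Rangrf, and its counts were not whole in 11 libraries, so the division of reads between these genes is uncertain.

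Slc25a34, a close relative of Slc25a35, read 3.83, 4.17 and 11.5 normalised CPM in fresh livers, 5.02, 5.16 and 0.839 in vitrified livers, 15.7, 13.3 and 22.9 in fresh kidneys and 15.8, 28.2, 12.7 and 15.5 in vitrified kidneys. The highest liver, fresh 3, just missed the lowest kidney (log2 -1.85 ± 0.40, adjusted p = 0.0013). Slc25a46, an outer membrane protein involved in mitochondrial shape, was marginally higher in liver with TMM scaling (54.7 to 70.2 against 40.3 to 54.6 normalised CPM, log2 0.29 ± 0.11, adjusted p = 0.040), but passed in only 4 of 13 fits that left out 1 library, and its sign turned with library totals (log2 -0.70, adjusted p = 3.3e-05) and with FPKM. Its counts were not whole in 12 libraries, with the same limit as for Slc25a35. The same holds for Slc25a25 in 9 libraries, for Slc25a11 and Slc25a51 in 6 each, for Slc25a21 in 2 and for Slc25a26 in 1. Slc25a45 (log2 0.50 ± 0.22, adjusted p = 0.060, and -0.51 with totals, a turned sign), the choline carrier Slc25a48 (-0.20 ± 0.29) and Slc25a53 (-0.01 ± 0.50) did not pass. Slc25a43, with 70 counts in total and 67 of them in kidney, and Slc25a54, with 0 counts in all 13 libraries, were not tested. A count of 0 allows up to 3 counts, which is 0.150 to 0.187 CPM in these libraries and covers counting error only.

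The organ pattern was also fitted within each origin, in sets of libraries that share none. Of 40 members tested in fresh origin, 11 were higher in liver (23.7% of all genes) and 12 in kidney (26.8%). Of 39 tested in vitrified origin, 11 were higher in liver (20.6%) and 14 in kidney (24.9%). The sign was the same in both origins for 38 of 39 members (97.4%, against 90.1% of all genes), and the exception was Slc25a42 (log2 0.03 and -0.14). There were 20 members called in both origins, 87.0% of those called in fresh and 80.0% of those called in vitrified, against 79.8% and 88.8% over all genes. All 20 had the same sign in both origins, as did all 5486 genes called in both. Slc25a51 passed in fresh origin (log2 -1.10, adjusted p = 0.0027) but not in vitrified origin (log2 -0.28, adjusted p = 0.52). Slc25a25 passed in vitrified origin alone (log2 0.92, adjusted p = 0.024, against 1.96 and 0.067 in fresh). The test of the difference between origins, given below, did not pass for either gene.

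The comparison named in the study's design is that of vitrified with fresh oocyte origin within an organ. No Slc25 gene passed in liver (0 of 38 tested, 0% of 12335 genes) or in kidney (0 of 40 tested, 0% of 14018 genes) by edgeR's quasi-likelihood test. At an unadjusted p under 0.05 the members again gave 0 in liver (3.17% of all genes) and 0 in kidney (2.05%), and DESeq2 and limma-voom each called 0 members in both organs. The smallest adjusted p of any member was 0.991 in liver and 0.999 in kidney. Members' median difference was -0.08 in liver, with 14 of 38 above 0, and 0.05 in kidney, with 25 of 40 above 0, against medians of 0.00 and 0.02 over all genes. Median absolute differences were 0.15 in liver and 0.18 in kidney, against 0.21 and 0.18 over all genes. These p-values do not show that the origins were alike, and the errors of single members set what could have been seen.

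**Figure D5:**
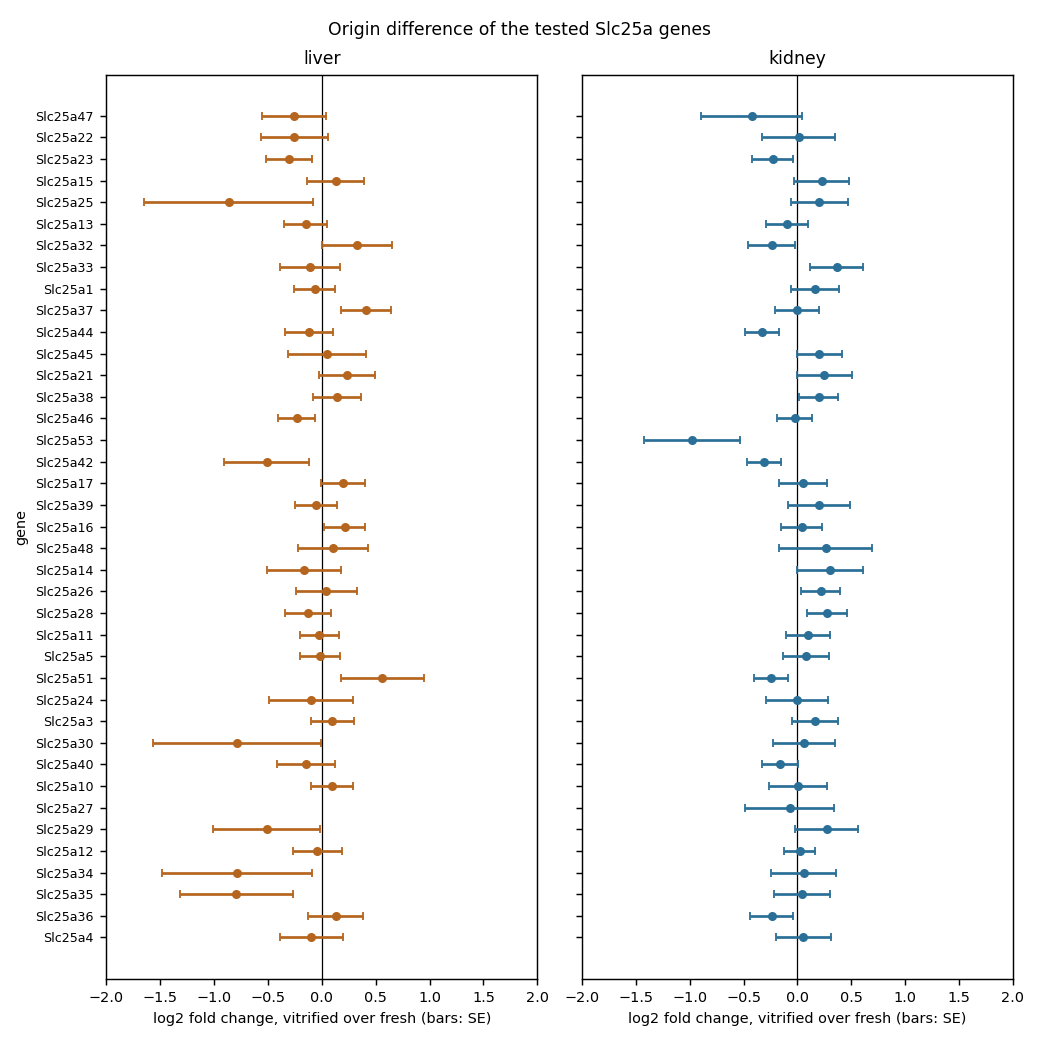
Origin difference (log2 fold change, vitrified over fresh) of tested Slc25 genes in liver (left) and kidney (right), with bars for the SE. The widest bars in liver belong to Slc25a25, Slc25a30 and Slc25a34, and Slc25a53 farthest from 0 in kidney at -0.98.

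In liver the members with the smallest unadjusted p were examined in each direction. Slc25a37 read 42.4, 41.9 and 29.0 normalised CPM in the fresh group and 49.4, 39.998 and 59.6 in the vitrified group (log2 0.41 ± 0.23, adjusted p = 0.991). It stood at 0.25 without liver fresh 3, the only liver near 0 in Y-linked counts, a trait thus found on the fresh side alone. Slc25a51 read 59.6, 43.3 and 65.9 against 61.4, 49.2 and 136 (log2 0.56 ± 0.39, adjusted p = 0.991). Groups overlapped for both, and without liver vitrified 3, the single high library, Slc25a51 stood at -0.011. In the other direction Slc25a35 read 1.76, 2.56 and 1.44 against 1.43, 1.36 and 0.420 (log2 -0.79 ± 0.53, adjusted p = 0.991), and liver vitrified 3 again was the extreme, with -0.43 when it was left out. Slc25a23 read 343, 331 and 246 against 278, 244 and 214 (log2 -0.31 ± 0.21, adjusted p = 0.991). Fresh and vitrified livers did not overlap for Slc25a35 and Slc25a46, 2 of 38 members (8.42% of all genes).

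In kidney Slc25a33 read 8.17, 7.29 and 9.12 normalised CPM in the fresh group and 8.15, 12.2, 13.9 and 8.00 in the vitrified group (log2 0.37 ± 0.25, adjusted p = 0.999). Slc25a28 read 21.8, 19.1 and 17.0 against 24.2, 28.8, 21.4 and 19.0 (log2 0.27 ± 0.19, adjusted p = 0.999). Groups overlapped for both of these. Slc25a53 read 0.739, 0.742 and 0.639 against 0.362, 0.196, 0.529 and 0.326 (log2 -0.98 ± 0.44, adjusted p = 0.999). This orphan carrier rested on 4 to 19 counts per kidney library, and all 3 fresh kidneys lay above all 4 vitrified ones. Slc25a44 read 35.7, 40.7 and 32.2 against 32.4, 27.9, 29.7 and 25.1 (log2 -0.33 ± 0.16, adjusted p = 0.999). Fresh and vitrified kidneys did not overlap for Slc25a42, Slc25a51 and Slc25a53, 3 of 40 members (3.61% of all genes).

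Whether an origin difference itself differed between liver and kidney was tested as an interaction (the vitrified over fresh difference in liver minus that in kidney), which 0 of 40 members and 0% of 14441 genes passed by edgeR (0 members at an unadjusted p under 0.05, 1.90% of all genes, and 0 by DESeq2 and limma-voom). The smallest p of any member belonged to Slc25a51 (log2 0.79 ± 0.42, adjusted p = 0.9999) and to Slc25a35 (log2 -0.85 ± 0.54, adjusted p = 0.9999). Both moved most when liver vitrified 3 was left out, to 0.22 and -0.49. For Slc25a25 the interaction was -1.08 ± 0.80 (adjusted p = 0.9999).

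The extremes of the family were counted by library, beside those of all genes. Among 6 livers, liver vitrified 3 was the lowest for 12 of 38 members, including Slc25a42, Slc25a35, Slc25a34 and Slc25a30 (27.0% of all genes were lowest there), and the highest for 7, including Slc25a15, Slc25a32 and Slc25a51 (23.7% of all genes). As shares of 38 members, these lie near those of all genes. Liver fresh 1 was the highest for 12 of 38 members, a larger share than the 14.1% of all genes, and the lowest for 6 (16.1% of all genes). The cause was not tested. The 2 kidneys near 0 in Y-linked counts, 1 from each origin, were both the lowest for 11 of 40 members (18.4% of all genes), among them Slc25a1, Slc25a10, Slc25a13, Slc25a15 and Slc25a39. Both were the highest for 5 members (16.8% of all genes), which were Slc25a35, Slc25a27, Slc25a4, Slc25a24 and Slc25a23. Slc25a4, for example, read 279 and 258 normalised CPM in these libraries and 162 to 251 in the other 5 kidneys, and Slc25a10 read 217 and 190.0 against 280.3 to 362. The lower proximal tubule sums, led by Kap and not shared by all 5 markers, and the higher podocyte sums given above moved with these values. Their part was not tested. Leaving out these libraries and liver fresh 3 left 10 members higher in liver, 17 higher in kidney and 0 called for origin in either organ.

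Genes that work beside the Slc25 family were described from lists, to be read against the 30.3% of all genes higher in liver and 32.4% higher in kidney with TMM scaling, and 10.5% and 69.7% with library totals alone. Of the carriers of the same fold with other names, the uncoupling protein Ucp2 (log2 -1.22 ± 0.21, liver over kidney) and the outer membrane protein Mtch1 (-0.70 ± 0.14) were higher in kidney. Mtch2, an outer membrane insertase, was higher in liver with TMM scaling (0.55 ± 0.14) and turned to -0.43 with library totals alone. Other metabolite channels split into 5 higher in liver, 6 higher in kidney and 3 not passing, and with library totals alone into 1 and 12. Slc8b1, the sodium-calcium exchanger of the inner membrane, was highest for liver (2.77 ± 0.23), followed there by Sfxn2, a sideroflexin (0.59 ± 0.22, but -0.42 with totals), while the sideroflexins Sfxn4 and Sfxn3 led for kidney (-3.36 ± 0.53 and -3.02 ± 0.22).

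The calcium uniporter genes gave 0 higher in liver, 3 higher in kidney and 3 not passing (0 and 5 with library totals alone), led by Mcur1 and Micu3 (-1.79 ± 0.17 and -1.33 ± 0.15). Of the import machinery, which inserts carriers into the inner membrane, 5 genes were higher in liver, 2 in kidney and 4 did not pass, while with library totals alone 0 were higher in liver and 9 in kidney. Timm8a1 and the receptor Tomm70a led for liver (1.26 ± 0.17 and 0.98 ± 0.17), and Tomm20 and Timm22, the pore of the carrier translocase, were higher in kidney (-0.95 ± 0.16 and -0.64 ± 0.15). Nuclear-encoded respiratory chain genes gave 0 higher in liver, 7 higher in kidney and 9 not passing, led by Cycs (-1.14 ± 0.25) and Ndufb8 (-0.86 ± 0.18). None of the 9 mitochondrially encoded genes passed by edgeR. With library totals alone all 16 nuclear-encoded and 8 of the 9 mitochondrially encoded genes passed as higher in kidney.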

How the data were processed

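RNA was sequenced from 13 libraries of liver and kidney. For every gene the authors deposited estimated counts and FPKM. The submitters' processing notes list StringTie 1.3.1, HISAT2 2.4, Bowtie2 2.2.8, DESeq2 and build GRCm39, without role or order. How reads were assigned, and whether by strand, is not given in the sources, so antisense and overlapping genes cannot be told apart. Estimated counts (7.63% to 9.14% per library not whole) were rounded and tested with edgeR 4.0.16 in R 4.3.3: TMM, the default filter on low counts, robust quasi-likelihood, no covariates, Benjamini-Hochberg adjustment over all genes tested, called at an adjusted p under 0.05. Organ difference and interaction used all 13 libraries, and origin was fitted within each organ. SE is the log2 fold change over the root of the test statistic. Totals of 16073251 to 19964914 counts set the precision.

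Genes named with full values by rule were the 8 called members per direction with the largest organ difference with mean CPM of 1 or more, and the 2 per direction with the smallest p for origin and 2 for the interaction. Slc25a30 was added after its values were seen. Members and lists were chosen with earlier results of these data known. Of the genes with this symbol pattern, 2 are not reported here, 1 of which is included in the counts and sums. Alternatives were DESeq2 1.42.0, limma 3.58.1 (voom, and log2(FPKM + 1) or log2(FPKM + 0.1)), DESeq2 size factors, library totals alone, other filters, a newer quasi-likelihood method, a replicate block and leaving out libraries. Promoters came from a RefSeq table of GRCm38.p6, whose build differs from that of the counts.

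Equal replicate numbers in both organs were checked for pairing: deviations from group means correlated at 0.202, 0.194 and 0.207 in fresh origin and at 0.105, 0.033 and 0.353 in vitrified origin. Y-linked counts were near 0 in both liver fresh 3 and kidney fresh 3, and in neither organ for the other numbers that both organs share. Kidney vitrified 4, also near 0, has no liver of its number. These observations come from the data and not from the labels, and do not settle whether equal numbers mark the same mouse. Kidneys number 1 of fresh and vitrified origin, which are different mice, reached 0.40. In fresh origin the replicate block gave 11 members higher in liver and 11 in kidney.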

Additional observations from a re-analysis of the deposited data

Results flagged for a closer look

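Among the 4 vitrified kidneys, a single library lay far from the other 3 for 3 of 40 Slc25 genes, where chance alone gives about 1 in 20, or 2 of 40. The count is thus close to that of chance, and the share over all genes is not given here. Slc25a16, a carrier linked to coenzyme A, read 92.1 normalised CPM in kidney vitrified 4 and 119 to 123 in the others. Slc25a30, a relative of the uncoupling proteins, read 126 in kidney vitrified 3 and 57.7 to 66.8 in the others. Slc25a36, a pyrimidine nucleotide carrier, read 74.4 in kidney vitrified 2 and 101 to 105 in the others, still above all livers. The 3 libraries differ, and kidney vitrified 4 is the one near 0 in Y-linked counts, whose part was not tested. Groups of 3 libraries are too small for this comparison.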

How the results depend on the processing

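Scaling moved the organ counts, and the other settings tried moved none of them by over 1.5 times. With library totals alone, with limma on log2(FPKM + 1) and with limma on log2(FPKM + 0.1), members higher in liver numbered 5, 5 and 5 (12 with TMM) and higher in kidney 28, 29 and 29 (17 with TMM). At least 2-fold, they numbered 3, 3 and 3 in liver (9) and 24, 19 and 23 in kidney (8). In fresh origin the counts were 5, 5 and 5 in liver (11) and 28, 27 and 27 in kidney (12), and in vitrified origin 3, 3 and 3 (11) and 26, 26 and 26 (14). Log2 differences turned under these 3 settings for Slc25a21 (-0.58, -0.47 and -0.52), Slc25a37 (-0.031, -0.011 and -0.013), Slc25a38 (-0.68, -0.61 and -0.66), Slc25a44 (-0.12, -0.13 and -0.14), Slc25a45 (-0.51, -0.47 and -0.51) and Slc25a46 (-0.70, -0.65 and -0.70). The settings differ in how libraries are scaled. All genes shifted as well: library totals alone called 10.5% of them higher in liver and 69.7% in kidney (30.3% and 32.4% with TMM). At least 2-fold, these shares of all genes were 8.40% and 48.4% (16.3% and 23.8% with TMM). Of the 40 members, library totals called 12.5% and 70%, and 7.5% and 60% at least 2-fold.

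Leaving out 1 library gave 11 to 14 members higher in liver and 16 to 18 in kidney. Over all genes it gave 8598 to 9081 organ calls in either direction (9051 with all libraries). Among the members named, signs turned for 3 values: Slc25a42 ranged from -0.23 to 0.13 and Slc25a53 from -0.26 to 0.22 between organs (highest without liver vitrified 3), and Slc25a51 (0.56 with all libraries) from -0.011, without liver vitrified 3, to 0.84 for origin in liver.

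The paired fit with a replicate block gave 10 members higher in liver and 17 in kidney (vitrified origin 10 and 12), with Slc25a25 and Slc25a46 no longer called (adjusted p 0.092 and 0.089), and changed no other organ call and no origin call among the members named. Whether equal replicate numbers mark the same mouse was not settled by the correlations between organs. Within liver the deviations of equal numbers across origins correlated at 0.071, -0.17 and -0.058, within kidney at 0.40, -0.0091 and -0.45.

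For origin, 0 members were called under every setting run. Over all genes DESeq2 called 10 in liver and 10 in kidney. In kidney, no filter on low counts gave 2, limma-voom 3, limma on log2(FPKM + 0.1) 3 and the newer quasi-likelihood method 2. Leaving out 1 library gave 0 to 1 in liver (1 without liver fresh 1) and 0 to 3 in kidney (3 without kidney fresh 1). The causes were not tested. Slc25a2, Slc25a18, Slc25a31, Slc25a41, Slc25a43 and Slc25a54 had too few counts to be tested at this depth.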

Other observations

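With a fixed length per gene, its deposited counts and FPKM would differ only by that length and the library's scale. FPKM built from several transcripts of a gene need not have a fixed length, and how it was built is not given. For 33 of 38 members with a mean of at least 50 counts, the length implied by the 2 values varied by at most 1.4 times over the 13 libraries, but for 5 it varied more, among them Slc25a35, Slc25a22, Slc25a32 and Slc25a51. For Slc25a22 the implied length in liver vitrified 1 was 0.478 of its median over libraries. That library had the highest FPKM of all 13 (70.3) while its normalised CPM of 108 lay within the other livers (68.0 to 161). Readings of single libraries for these 5 members therefore depend on which of the deposited values is used.

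Of the 46 members, 4 pairs lie next to each other on a chromosome with no protein-coding gene between them in the RefSeq list. Besides Slc25a29 and Slc25a47, these are Slc25a41 with Slc25a23, Slc25a54 with Slc25a24, and Slc25a43 with Slc25a5. In each of these 3 pairs 1 gene had too few counts to be tested while the other was called between organs (log2 2.03, -0.82 and -0.67).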
